A study of Mus musculus with 4 samples.

Results

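Astrocytes, the star-shaped glia that surround synapses and blood vessels, were followed through 9 of their marker genes in 4 RNA samples of hippocampal area CA1. The genes were Gfap, Glul, Aldoc, Apoe, Clu, S100b, Gja1, Aqp4 and Sparcl1, and they were chosen as known astrocyte genes, by name. Every probe set of the array whose annotation gave exactly 1 of these symbols was taken. All 9 genes were found, with 15 probe sets, among 8251 genes named by a single symbol and 12422 probe sets other than controls. The samples came from young male C57BL/6J mice, an inbred strain, which had only been handled by the experimenter. They were collected 1, 2, 4 and 6 hours after other, experimental mice had received their last shock, with a single sample per time. Shocked mice were not analysed here. Whether RNA of 1 mouse or of several went into a sample is not in the labels, so time, animal, dissection and array cannot be told apart, and p-values measure only the spread between these samples, which may be technical. In bulk RNA, a different number of astrocytes and a different amount of RNA per astrocyte cannot be told apart either.

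Astrocytes take up the glutamate and potassium that neurons release, return glutamine to them, supply them with energy and lipids, and wrap the capillaries with their end feet. In area CA1 they tile the layers around the pyramidal cells and are joined to one another by gap junctions. The 9 genes cover these roles: a filament and a calcium-binding protein of the cell body, enzymes of glutamine synthesis and glycolysis, a gap junction and a water channel, and proteins that are secreted. Several of them are also made elsewhere, Apoe by microglia, Clu by some neurons and by the choroid plexus, and Glul by oligodendrocytes.

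Each value is an array intensity (signal) on a linear scale, as deposited. Differences are on the log2 scale, after the 4 arrays had been given the same distribution of values (quantile normalization), and compare each sample with the mean of the remaining 3, whose SD is given beside them. Tests covered the probe sets with a mean log2 value at or above that of a signal of 105, and 14 of the 15 were among them. The exception was 161321_i_at, the dimmer set for Apoe, with 14.2, 38.4, 36.7 and 67.0 in the 1-, 2-, 4- and 6-hour samples, the first of them under the floor of 35.1 that was set for low values. Its 6-hour value was the highest. Letters before "_at" in the name of a probe set mark departures from the array's usual design, such as probes that can also pair with related transcripts (f, s, g) or sets built under relaxed rules (r, i). Probe sets differ in how well they bind, so their levels are not set against each other.

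The 1-hour sample stood apart in the Gapdh control, whose 3' signal was 4.52 times its 5' signal there and 1.18 to 1.37 times in the other 3. For the actin control the ratio was 2.34 there and 1.76 to 2.00 in the others, a smaller gap. Its brightest probe sets were also brighter, with a 99th percentile of 10931 against 9462 to 10007. Transthyretin (Ttr), a thyroid hormone carrier of the choroid plexus, had a signal of 2246.3 in it and 142.8 to 352.7 in the others. The other 7 choroid plexus and ependyma markers on the array summed to 1850 in it and to 1615 to 1758 in the others, and to 4096 against 1813 to 2094 with Ttr. Of the 6 tested markers, Ttr among them, 4 lay above the mean of the other samples in it and 2 below. Calml4 had 228.2 in it and 62.8 to 142.4 in the others, and Foxj1 had 262.4 and 329.4 to 409.4. The dim, untested Folr1 and Aqp1 were also highest in it, at 113.4 and 147.6. These values stand beside each 1-hour difference below, and their part in those differences was not tested.

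Most astrocyte probe sets varied less than the median tested probe set, but most did not when set against probe sets of similar brightness. Their SD of log2 signal had a median of 0.19 over the 14 tested, against 0.25 over all 7453 tested. A total of 10 of the 14 had an SD below that overall median. They were also bright, with 9 of the 14 in the brightest tertile of tested probe sets, where the median SD was 0.18. Against the median of the tertile that each belonged to, 5 of 14 had the smaller SD. A range of 1 log2 unit (2-fold) or more between the highest and the lowest sample was found for 2 of 14, Aqp4 102703_s_at and Glul 94852_at, against 17.9% of all tested probe sets. Over the 2-, 4- and 6-hour samples alone, 2 of 14 had such a range, against 9.04%. Over the 1-, 2- and 6-hour samples it was 0 of 14, against 13.2%.

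**Figure D1:**
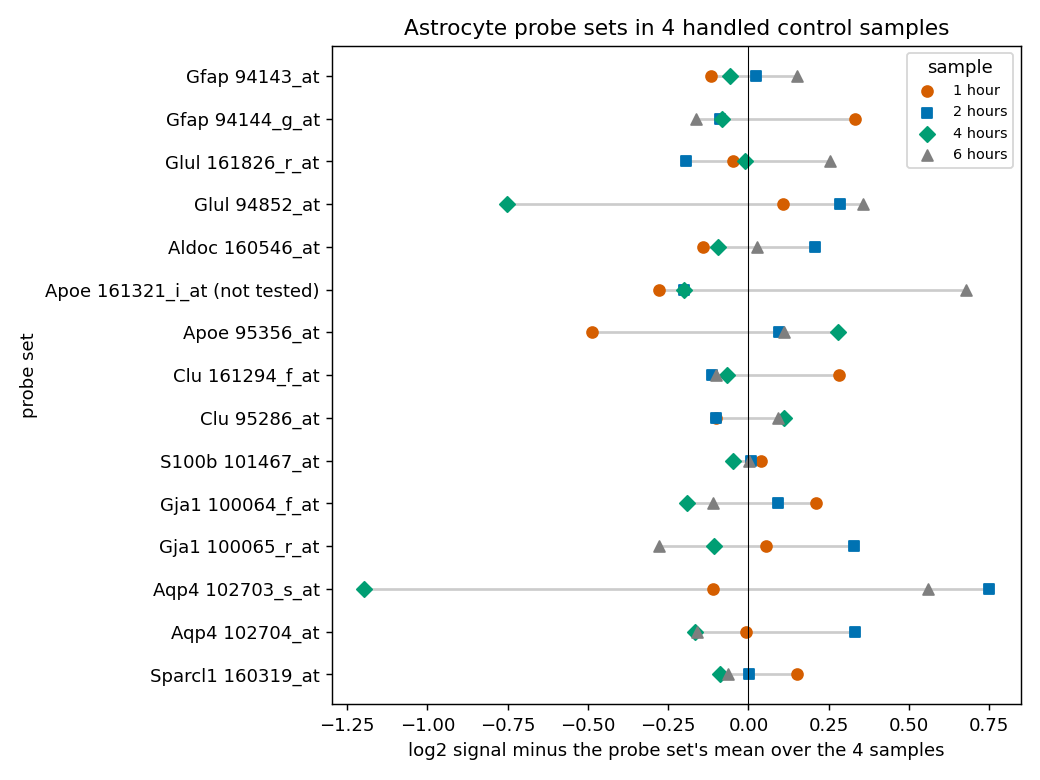
Log2 signal of each of the 15 astrocyte probe sets in the 4 samples (points, by hour), minus that probe set's mean over the samples. The 4-hour sample lies far to the left for Glul 94852_at and Aqp4 102703_s_at, and the 1-hour sample lies lowest for Apoe 95356_at and highest for Gfap 94144_g_at.

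**Figure D2:**
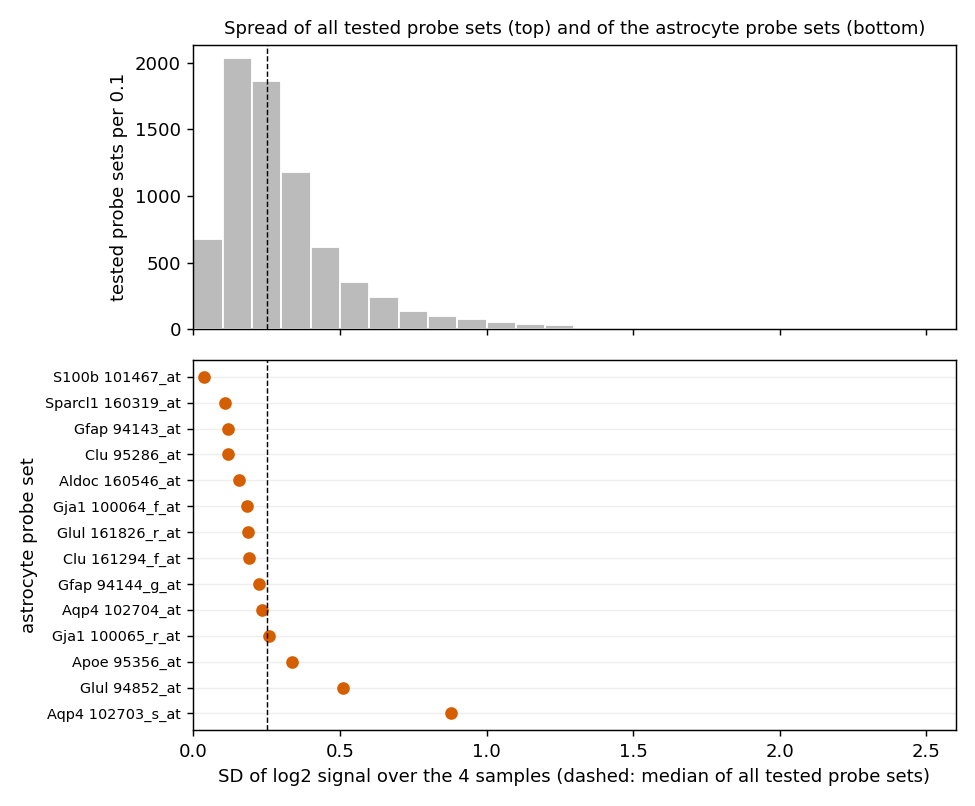
SD of the log2 signal over the 4 samples for all 7453 tested probe sets (bars, number in each step of 0.1) and for the 14 tested astrocyte probe sets (points). The dashed line is the median of all tested probe sets, 0.25, and 10 of the 14 points lie to its left.

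The cell body was represented by Gfap and S100b. Gfap encodes the glial fibrillary acidic protein, the intermediate filament of astrocytes, whose amount rises when they react to injury. Its brighter probe set, 94144_g_at, had signals of 2283.3, 1692.2, 1714.5 and 1631.8 at 1, 2, 4 and 6 hours. The last 3 were close together, with a range of 0.08 on the log2 scale, and the 1-hour sample was above all of them. Its difference was 0.44 (SD of the other 3 0.05), a factor of 1.36, with an adjusted p of 0.21 in a limma fit of the sample against the other 3. The second Gfap probe set, 94143_at, had 277.8, 320.8, 293.7 and 347.3, and there the 1-hour sample was the lowest (-0.16, SD 0.11, adjusted p = 0.80). The probe sets of Gfap therefore gave opposite signs for that sample.

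S100b encodes a small calcium-binding protein that astrocytes also release. Its signals were 755.8, 757.7, 719.8 and 758.4, which differed by a factor of 1.06 at most after normalization. With an SD of 0.04 it lay at the 0.617th percentile of SD over all tested probe sets, counted from the smallest, and was the steadiest of the 14. No sample stood apart in it.

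The enzymes were Glul and Aldoc. Glul encodes glutamine synthetase, which turns glutamate and ammonia into glutamine. Probe set 94852_at had 476.4, 565.0, 269.7 and 595.0, so that the 4-hour sample was 2.00-fold below the others (SD of the other 3 on the log2 scale 0.13, adjusted p = 0.9999, and 0.29 in a fit without the 1-hour sample). Probe set 161826_r_at had 793.7, 730.6, 819.8 and 996.7, with the 6-hour sample highest (0.34, SD 0.10, adjusted p = 0.999). In this second set the 4-hour sample lay at -0.01, between the others. Both sets had their highest value at 6 hours.

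Aldoc encodes aldolase C, a glycolytic enzyme that in the brain marks astrocytes and some Purkinje cells. Its signals were 11024.1, 12441.8, 10461.7 and 10948.5. The 2-hour sample was the highest, by 0.28 (SD of the other 3 0.09, adjusted p = 0.9999). With equal medians in place of quantile normalization that difference was 0.15.

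The membrane proteins were Gja1 and Aqp4. Gja1 encodes connexin 43, the main gap junction protein of astrocytes. Probe set 100064_f_at had 6734.4, 5763.2, 4909.0 and 5167.0, with the 1-hour sample highest (0.28, SD of the other 3 0.14, adjusted p = 0.38). Probe set 100065_r_at had 364.9, 460.4, 330.7 and 298.0, with the 2-hour sample highest (0.44, SD 0.17, adjusted p = 0.9999). In both sets the 1- and 2-hour samples lay above the 4- and 6-hour samples.

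Aqp4 encodes aquaporin 4, the water channel of the end feet around blood vessels. Probe set 102703_s_at was the most variable of the 14, at the 96.6th percentile of SD, with 225.4, 423.3, 105.2 and 368.8. The 4-hour sample lay 3.03-fold below the others (-1.60, SD of the other 3 0.45, adjusted p = 0.9999, and 0.21 in a fit without the 1-hour sample), and the SD of those 3 was itself wide. Probe set 102704_at had 1233.5, 1570.4, 1118.0 and 1126.8. There the 2-hour sample was highest (0.44, SD 0.09, adjusted p = 0.9999) and the 4-hour sample lowest (-0.22, SD 0.25), with the 6-hour sample next to it. Both sets had their highest value at 2 hours and their lowest at 4 hours, but by different amounts. Markers of endothelium and pericytes, the cells that these end feet enclose, had a summed signal of 3134, 3237, 2777 and 2385 over the 13 on the array, and of 1758, 2447, 2013 and 1766 without Eng, the brightest at 1 hour. Of the 7 tested, 6 lay above the mean of the other samples at 2 hours (median 0.60), where both Aqp4 sets were highest. Over all tested probe sets 3835 lay above at 2 hours and 3617 below. At 4 hours, where both Aqp4 sets were lowest, 3 of the 7 lay above and 4 below (median -0.17). At 1 hour the counts were the same (median -0.15). At 6 hours 5 lay below the mean of the others (median -0.62), while Aqp4 102703_s_at lay at 0.75 and 102704_at at -0.21. Their part in the Aqp4 values was not tested.

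The secreted proteins were Apoe, Clu and Sparcl1. Apoe encodes apolipoprotein E, which carries cholesterol and other lipids from astrocytes to neurons. Its bright probe set, 95356_at, had 20959.5, 24999.8, 31735.8 and 26381.9, the 1-hour sample lowest and the 4-hour sample highest. The 1-hour sample lay 1.57-fold below the others (-0.65, SD of the other 3 0.10, SE of the fit 0.097), with an adjusted p of 0.019. This was the 1 astrocyte probe set of 14 that passed in any sample. The call was lost under other scalings of the arrays. On the values as deposited the difference was -0.39 (SD of the other 3 0.18, 1.31-fold, adjusted p = 0.18), and with equal medians it was -0.36 (SD 0.20, adjusted p = 0.29). Over the 9 alternatives that gave a value, the adjusted p ranged from 0.007 to 0.34, and 4 of them passed. The 1-hour sample was the lowest under each of the 3 scalings. Markers of microglia, which also make Apoe, had a summed signal of 9355, 8914, 10046 and 9362 over 11 genes. Of the 8 tested, 4 lay above the mean of the other samples at 1 hour and 4 below. Ctss, the brightest at 1 hour, had 2896.4, 2279.0, 2401.9 and 2218.7. The widest ranges of the 8 were those of C1qb, with 514.2, 773.4, 1061.6 and 803.6, and C1qa, with 986.1, 1406.9, 1784.1 and 1555.6. Both were lowest at 1 hour and highest at 4 hours, as was Apoe. Next came Tyrobp, with 914.4, 578.5, 581.8 and 792.5, which was highest at 1 hour and lowest at 2 hours. The part of microglia in the Apoe values was not tested.

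**Figure D3:**
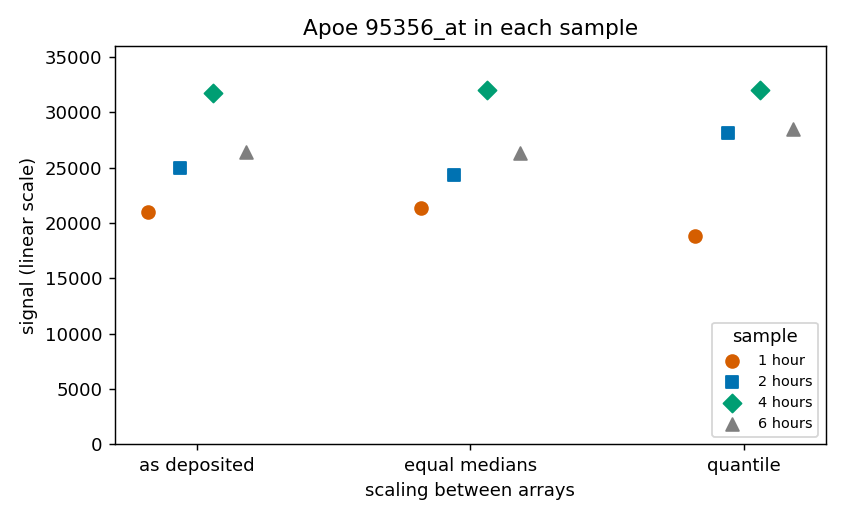
Signal of Apoe 95356_at in each of the 4 samples (points) as deposited, with the arrays scaled to equal medians, and after quantile normalization. The 1-hour sample is lowest each time, at 20959.5, 21375 and 18809, and the SD of the other 3 on the log2 scale is 0.18, 0.20 and 0.10.

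Clu encodes clusterin, an extracellular chaperone also known as apolipoprotein J. Probe set 161294_f_at had 4524.2, 3303.7, 3412.8 and 3331.8. The last 3 had a range of 0.05, and the 1-hour sample lay above them by 0.38 (SD of the other 3 0.02, adjusted p = 0.20). Probe set 95286_at had 8612.6, 7764.4, 9386.2 and 9084.6, with the 1-hour sample at -0.13 (SD 0.12, adjusted p = 0.62). The sign of this second set turned with the scaling, at -0.02 as deposited and 0.02 with equal medians, while the first set lay at 0.43 and 0.47. For Gfap the opposite signs of the sets held under all 3 scalings. Sparcl1 encodes hevin, a matrix protein by which astrocytes promote the formation of synapses. It had 10969.9, 8602.3, 8524.0 and 8505.6, with the 1-hour sample highest (0.20, SD 0.05, adjusted p = 0.38). The size of that difference depended on the scaling and was 0.36 as deposited and 0.40 with equal medians.

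Probe sets of the same gene were then set side by side, since 5 members had 2 tested sets. Both sets agreed on the highest sample in 2 of 5 genes (Glul and Aqp4) and on the lowest in 2 of 5 (Aqp4, and Clu, whose set 95286_at was tied at 1 and 2 hours after normalization). Over all 1213 such pairs in 920 genes, 29.4% agreed on the highest and 31.5% on the lowest sample, ties counted as agreement. The largest gap between the centred profiles of a pair was 0.24 for Gja1, 0.38 for Clu, 0.45 for Gfap, 0.74 for Glul and 1.03 for Aqp4, and the median over all pairs was 0.49. For Glul and Aqp4 that gap lay above the upper quartile of all pairs, 0.73, and for the other 3 genes below the median.

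**Figure D4:**
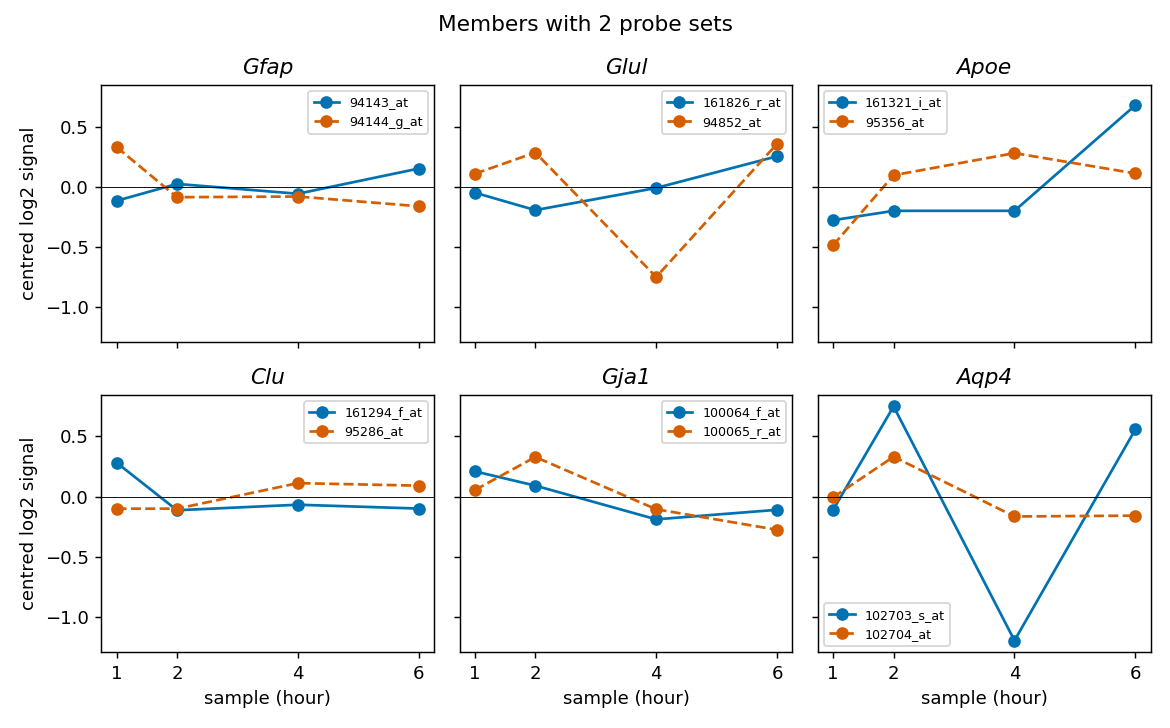
Centred log2 signal (value minus the probe set's own mean) against the hour of the sample for the 6 members with 2 probe sets, 1 line per probe set; 161321_i_at of Apoe was dim and not tested. The lines of Gja1 run close together, those of Gfap and Clu part at 1 hour, and those of Glul and Aqp4 part at 4 hours.

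The time of collection was tested as a linear trend from 1 to 6 hours. No astrocyte probe set passed (0 of 14 in limma at an adjusted p under 0.05), and neither did any of the 7453 tested (0%). At an unadjusted p under 0.05, 0 of 14 and 6.24% of all did. The fitted change from 1 to 6 hours ran from -0.47 (SE 0.32, adjusted p = 0.78) for Gja1 100065_r_at to 0.51 (SE 0.26, adjusted p = 0.75) for Apoe 95356_at. Without the 1-hour sample the fitted change of Apoe was 0.01. For Gfap 94144_g_at the estimate was -0.39 (SE 0.24, adjusted p = 0.76) and, without the 1-hour sample, -0.07. For Gja1 100064_f_at it was -0.35 (SE 0.19, adjusted p = 0.75) and -0.20. For Aqp4 102704_at it was -0.33 (SE 0.27, adjusted p = 0.82) and -0.48. Glul 161826_r_at had 0.35 (SE 0.25, adjusted p = 0.78), and 0.07 from 1 to 4 hours without the 6-hour sample. The number of arrays, 4, limits the precision of these estimates.

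Each sample was also compared with the other 3 over all probe sets. In the 1-hour sample 1 of 14 astrocyte probe sets (Apoe) passed as lower, against 2.11% of all tested, and 0 passed as higher, against 0.242%. At an unadjusted p under 0.05 there were 3 of 14 (Gfap 94144_g_at, Apoe 95356_at and Clu 161294_f_at), against 15.8%. In the 2-, 4- and 6-hour samples 0 of 14 passed in limma, as did 0% of all. At an unadjusted p under 0.05, the counts there were 0, 2 (Glul 94852_at and Aqp4 102703_s_at) and 0 of 14, against 2.64%, 2.76% and 2.27%.

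As a group the 9 genes, each by its brightest probe set, lay on both sides in the 1-, 2- and 6-hour samples and mostly below in the 4-hour sample. Their median difference was -0.01, 0.01, -0.11 and 0.00 in the 1-, 2-, 4- and 6-hour samples, with 4, 6, 2 and 5 of 9 above the mean of the other samples. The corresponding medians over all tested probe sets were 0.05, 0.01, 0.01 and 0.00. At 4 hours 2 of 9 lay above under each of the 3 scalings, while over all tested probe sets 3786 lay above and 3666 below. At 1 and 2 hours the direction depended on the scaling, and with equal medians 7 of 9 lay above at 1 hour (median 0.02) and 3 of 9 at 2 hours (median -0.11). Neuronal markers lay at a median of -0.54 in the 1-hour sample after quantile normalization, with 8 of 11 lower and 1 of the 11 called lower. Over all tested probe sets 4079 lay above there and 3373 below, and 2.11% were called lower. The median there was -0.07 for oligodendrocytes, 0.01 for microglia and -0.15 for endothelium and pericytes. It was 0.24 for choroid plexus and ependyma, 0.23 for meninges and 0.68 for blood. The difference between the 9 genes and these lists was not tested.

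Of 32 further markers, 20 had a probe set under their symbol and 19 were tested. None of the 19 passed in limma, for the trend or for any single sample. Their median difference was -0.04, -0.07, 0.05 and -0.03 in the order of hours. A range of 2-fold or more was found for 1 of 19, against 17.9% of all tested probe sets. That gene was Fgfr3, a growth factor receptor of astrocytes, with 101.8, 66.0, 128.1 and 151.7. Its mean log2 value, 6.74, lay just above the filter, 6.71. Bcan, a proteoglycan of the perineuronal matrix, had 1266.2, 1738.4, 2520.6 and 2164.7. Slc1a2, the main glutamate transporter of the forebrain, had 221.4, 318.0, 370.8 and 408.7, lowest in the 1-hour sample (-0.67, SD of the other 3 0.19, adjusted p = 0.29). The symbol Slc1a3, for the other main astrocyte glutamate transporter, was not in the annotation used here.

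Of 22 genes that astrocytes turn on when they react, 19 were on the array and 11 of these lay above the filter (57.9%, against 60.0% of all probe sets). None of the 11 passed in limma in any of these fits. Their median difference was -0.04, 0.15, -0.06 and 0.16. Vim, the filament vimentin, had 139.8, 132.5, 121.7 and 181.8 (SD 0.24). The widest ranges were those of Timp1, an inhibitor of metalloproteases, with 371.4, 546.4, 230.1 and 610.6, Nes, the filament nestin, with 109.3, 213.1, 218.4 and 256.7, and Osmr, the oncostatin M receptor, with 165.6, 148.0, 107.4 and 92.5. In the 1-hour sample, where the brighter Gfap probe set was highest, 3 of the 11 lay above the mean of the other samples and 8 below. Over all tested probe sets 4079 lay above there and 3373 below. Nes was lowest in that sample (-1.05, SD of the other 3 0.15, adjusted p = 0.20) and Osmr highest (0.56, SD 0.31, adjusted p = 0.61). Vim lay at -0.04 (SD 0.30).

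Genes that work beside Glul and Aldoc, in the uptake of glutamate and potassium and in energy supply, included 10 tested of 16 symbols (Slc1a2 again among them), and 0 passed. Pcx, the pyruvate carboxylase by which astrocytes refill the citric acid cycle, had the widest range, with 91.8, 142.9, 241.4 and 216.4. Slc2a1, the glucose transporter of capillaries and astrocytes, had 301.7, 438.8, 240.7 and 260.7. Genes that work beside Apoe and Clu, as lipid carriers and their receptors, included 13 tested of 20, and 0 passed. Lpl, the lipoprotein lipase, had 403.4, 255.8, 250.4 and 185.0, Sorl1, a sorting receptor of the low-density lipoprotein receptor family, 238.0, 335.6, 161.5 and 193.2, and Scarb1, a scavenger receptor for high-density lipoprotein, 866.7, 473.7, 805.9 and 861.8. In the 1-hour sample, where Apoe was lowest, 9 of these 13 lay above the mean of the other samples and 4 below, with a median of 0.20. Over all tested probe sets 4079 lay above there and 3373 below, with a median of 0.05.

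Relatives of the 9 genes in their own families included 18 tested of 36, and 0 passed. A total of 4 of the 18 had a range of 2-fold or more, against 17.9% of all tested probe sets. The widest were Aqp8, another aquaporin, with 243.6, 234.6, 145.4 and 43.0, Des, the muscle filament desmin, with 212.4, 56.3, 158.6 and 146.3, and Gjb1, a connexin of oligodendrocytes, with 73.5, 85.7, 102.1 and 214.7.

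The probe sets most like the astrocyte genes were found by the distance between centred log2 profiles over the 4 samples, among 6728 others with 1 symbol. Nearest to Gfap 94144_g_at were Romo1, a mitochondrial membrane protein (distance 0.02), Sox2, a transcription factor of neural progenitors and astrocytes (0.03), and Mfhas1 (0.03). Romo1 had signals of 1371.4, 1045.8, 1049.2 and 999.7, Sox2 1521.2, 1132.6, 1150.0 and 1086.7, and Mfhas1 859.9, 646.3, 635.9 and 619.8. Each was high at 1 hour like Gfap 94144_g_at, whereas the second Gfap probe set, 94143_at, was lowest there. Nearest to the mean profile of the 9 genes were Nsun2, an RNA methyltransferase, Rad21, a cohesin subunit, and Ywhag, a 14-3-3 protein, each at 0.02. With 4 samples many probe sets lie this near, 43 within 0.1 of Gfap and 125 within 0.1 of the mean profile.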

How the data were processed

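The deposited table holds 12488 probe sets in 4 samples of 1 group, handled controls, as intensity values on a linear scale. The authors had scaled each array to a common level, as read from the deposited values (trimmed mean 500.3 in each column). Array software and scan settings were not given in the sources used here. Probe sets were named from the platform's annotation table. Of 12422 that are not controls, 10833 had 1 symbol, 396 several and 1193 none. The part of a transcript that a probe set reads was not used here, and no probe sequences or coordinates were used.

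Quantile normalization was followed by a floor at the 20th percentile (35.1) and log2. Probe sets with a mean log2 value at or above the 40th percentile (7453) were tested with limma (version 3.58.1, run in R 4.3.3), using lmFit and a trended eBayes prior. One fit had the hour as a linear term, and 4 fits set a sample against the other 3, assuming that a single sample varies as those do. Each fit has 2 residual degrees of freedom, and p-values are two-sided and Benjamini-Hochberg adjusted over all tested probe sets. The fits were tested on simulated data. Plots used Python 3.11.15 and matplotlib 3.10.9.

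The 9 genes and the 12 other lists were chosen with earlier results of these data known. Beside the 9 genes, the text names the 3 tested genes with the widest range in each astrocyte list described, the 3 nearest profiles, and Ttr, Vim, Slc1a2 and Slc1a3. It also names the 3 microglia markers with the widest range, and Eng and Ctss, the brightest of their lists at 1 hour. Calml4, Foxj1, Folr1 and Aqp1 follow no such rule and were chosen with their values known. Genes in the closing section were chosen after their values were seen. A gene in a list is given by its brightest probe set. Alternatives were the scaling, the floor, a pseudocount of 16, the filter, the prior, log2 of the hour, averaging a gene's probe sets, and leaving out each sample.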

Additional observations from a re-analysis of the deposited data

Results flagged for a closer look

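In 2 of the 14 tested astrocyte probe sets a single sample lay far from the other 3, with a gap to its nearest neighbour, as a ratio to the whole range on the log2 scale, above Dixon's critical value for 4 samples. Over all tested probe sets 6.75% met this, and chance gives about 1 in 20. Gfap 94144_g_at had a ratio of 0.835, with the 1-hour sample high (2283.3 against 1631.8 to 1714.5). Clu 161294_f_at had a ratio of 0.884, also with the 1-hour sample high (4524.2 against 3303.7 to 3412.8). The untested Apoe 161321_i_at had a ratio of 0.919, with the 6-hour sample high (67.0 against 14.2 to 38.4), but only because its 1-hour value was raised to the floor. Without the floor the ratio was 0.618, below the critical value, and the widest gap was that of the 1-hour sample.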

How the results depend on the processing

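Of 280 recomputed results, 268 kept their side of the threshold or, without a test, moved by less than the spread between samples (0.19). A further 5 lost their call and 7 counts moved by more than 1.5 times. Only 1 astrocyte probe set was called in the main run, so most of the tested results had no call to lose. The 1 called value, Apoe 95356_at at 1 hour, kept its direction. The median of the 9 genes did change sign with scaling, from -0.01 to 0.02 at 1 hour with equal medians. At 2 hours it went from 0.01 to -0.06 on the values as deposited and to -0.11 with equal medians. The number of astrocyte probe sets called in the 1-hour sample was 1 (Apoe 95356_at) and became 0 on the values as deposited, 0 with equal medians, 0 with the floor at the 40th percentile, 0 with no filter on low values and 0 with no intensity trend in the prior. The adjusted p of Apoe was 0.18, 0.29, 0.096, 0.34 and 0.29 under these, and its difference was -0.65 under the last 3. Leaving out the 2-, 4- or 6-hour sample kept this 1 call (adjusted p 0.048, 0.007 and 0.029). With no filter, 1 probe set was called in the 6-hour sample, the dim Apoe 161321_i_at. The number with a range of 2-fold or more was 2 and ranged from 0 to 2 when 1 sample was left out, 0 being without the 4-hour sample. The trend count was 0 in every alternative run. No paired analysis was possible because there is 1 group. The titles of all 4 samples carry the same ordinal, 2nd, which the labels do not explain and which does not set samples apart. With 4 arrays the fits could miss differences of the size seen here, and a p above the threshold does not show that samples were alike.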

Other observations

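In the 4-hour sample, 144 of 7453 tested probe sets (1.93%) lay 1 log2 unit or more below the mean of the other 3 samples. Among them were 2 of the 14 astrocyte probe sets, Glul 94852_at and Aqp4 102703_s_at. Of the other tested genes on the lists, 4 did so by their brightest probe set, each chosen here after its values were seen. They were S100a1, a calcium-binding relative of S100b, with 876.8, 1118.3, 409.4 and 1013.2 (-1.28, SD of the other 3 0.16), Timp1, with 371.4, 546.4, 230.1 and 610.6 (-1.10, SD 0.35), Pecam1, an adhesion molecule of endothelium, with 178.4, 160.1, 30.9 and 155.1 (-2.22, SD 0.13, the 4-hour value under the floor), and Col1a1, a collagen of fibroblasts, with 410.7, 324.3, 129.5 and 322.9 (-1.39, SD 0.23). None of the 6 passed in limma (adjusted p = 0.9999 for each). The brighter probe set of Aqp4 and the second one of Glul lay at -0.22 and -0.01 in that sample.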
